A study of Mus musculus with 27 samples.

Results

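The 37 genes of the mouse mitochondrial genome were taken from the gene expression table by their names, which start with mt-, and made up 37 of its 51826 genes. They were 13 protein genes, 2 rRNA genes and 22 tRNA genes, annotated on chromosome MT of GRCm38.p6. The protein genes encode 7 subunits of complex I, 1 of complex III, 3 of complex IV and 2 of complex V (ATP synthase). The series measured RNA of the whole hippocampus of ICR mice, an outbred laboratory strain, in a design that crossed surgery with treatment. The groups were OVX Xmo (ovariectomised mice given xanthohumol, a prenylated flavonoid of hops; n = 4), OVX saline (ovariectomised mice given saline; n = 4), sham Xmo (sham-operated mice given xanthohumol; n = 4) and sham saline (sham-operated mice given saline; n = 3). The labels give no dose, duration or age, and nothing in them says that the libraries of a group came from separate animals, so p-values measure the spread between these libraries only.

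The mitochondrial genome is a small circle of DNA that is transcribed inside the mitochondrion from both strands into long precursors. In these precursors most protein and rRNA sequences are flanked by tRNAs, and cutting at the tRNAs releases the separate RNAs. The rRNAs and tRNAs serve the mitochondrion's own ribosomes, and the proteins made there join many nuclear-encoded subunits in the respiratory chain, on which neurons depend for most of their ATP. mt-Nd6 is the protein gene on the opposite strand from the others. mt-Nd4l with mt-Nd4, and mt-Atp8 with mt-Atp6, overlap and are carried on shared mRNAs. Most of the other mRNAs get a short poly(A) tail, whereas in human cells the mRNA of the gene corresponding to mt-Nd6 is known to lack one.

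Libraries held between 20.8 and 39.1 × 1e+06 counts, and the members took 14.9% ± 2.03 of the counts in OVX Xmo, 14.99% ± 2.17 in OVX saline, 17.2% ± 2.42 in sham Xmo and 27.0% ± 7.75 in sham saline (SD, n = 4, 4, 4 and 3). Hippocampal neuron markers were present in every group, and no marker on any of the cell type lists was at 0 in a whole group. The choroid plexus marker Ttr ranged widely within groups, from 90.8 to 8050 CPM in sham Xmo for example, and no choroid plexus marker passed the test in any comparison with sham saline. The fitted changes of its 10 markers were all negative in OVX saline (median −1.45) and all positive in sham Xmo (median 1.72), each against sham saline. Levels below are counts per 1e+06 counts after TMM scaling (a trimmed mean of log ratios between libraries), called CPM, unless they are stated to be shares of unscaled counts or TPM. In whole tissue, fewer cells of a type and less RNA per cell cannot be told apart.

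By share of unscaled counts, the 13 protein genes took 12.4%, 13.4%, 13.8% and 16.5% in OVX Xmo 1 to 4, and 16.5%, 14.8%, 13.5% and 11.9% in OVX saline 1 to 4. They took 19.2%, 15.99%, 15.4% and 14.3% in sham Xmo 1 to 4 and 19.0%, 34.1% and 24.2% in sham saline 1 to 3. Sham saline 2 and 3 thus stood above every other library, while sham saline 1 lay just below sham Xmo 1. The 2 rRNA genes took 0.797% ± 0.277 in OVX Xmo, 0.791% ± 0.223 in OVX saline, 0.884% ± 0.330 in sham Xmo and 1.17% ± 0.0257 in sham saline. The 22 tRNA genes took 0.0495% ± 0.0132 in OVX Xmo, 0.0463% ± 0.0124 in OVX saline, 0.0549% ± 0.0155 in sham Xmo and 0.109% ± 0.0352 in sham saline. The tRNA share of each sham saline library was above that of every other library, and the rRNA share of sham Xmo 1, at 1.38%, was the highest of all 15.

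**Figure D1:**
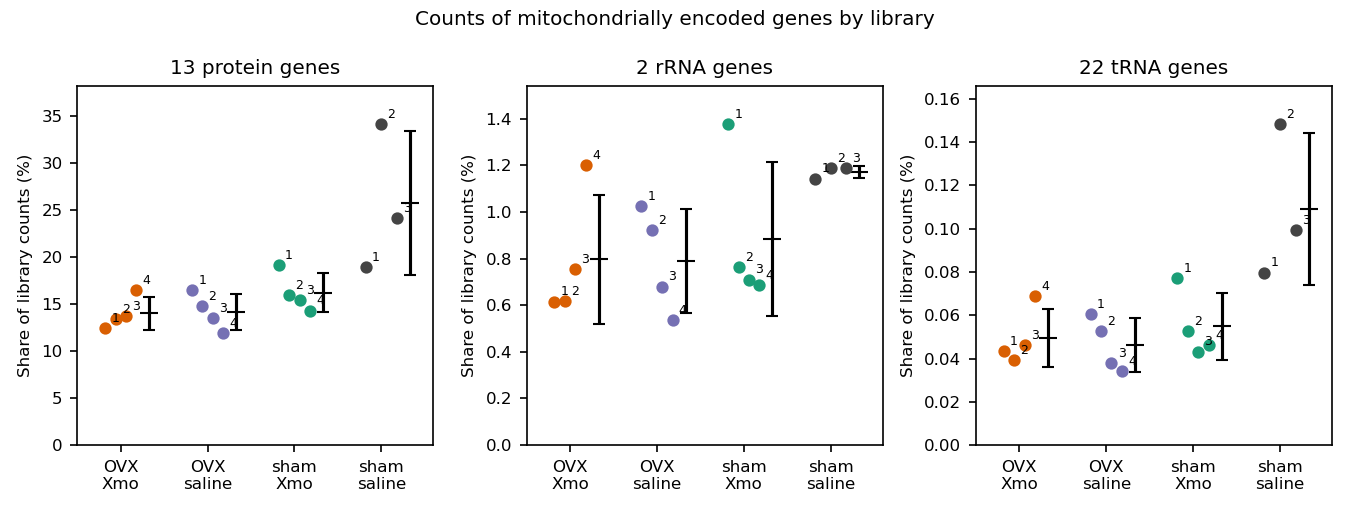
Share of each library's counts (%, vertical axes from 0) taken by the protein, rRNA and tRNA genes of the mitochondrial genome, by group; points are libraries with their replicate number, and the bar beside them is the mean ± SD. The protein share reached 34.1% in sham saline 2, while in the OVX groups no library passed 16.5%.

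Per unit of length, compared here by the deposited TPM, the most abundant member was mt-Co1, a catalytic subunit of complex IV, with 49213 ± 1355 TPM in OVX saline, and it came second in sham saline with 50941 ± 2064 TPM. mt-Atp8, a small subunit of ATP synthase, was the most abundant in sham saline with 62503 ± 16746 TPM and came after mt-Co1 and mt-Cytb in OVX saline with 28369 ± 4059 TPM. mt-Cytb, the complex III subunit cytochrome b, held 34820 ± 1987 TPM in OVX saline and 45454 ± 7677 TPM in sham saline. In sham saline the SDs of mt-Atp8, mt-Co1, mt-Nd1 and mt-Cytb overlapped, so these libraries gave no firm order among them. mt-Nd3 was the lowest protein gene in both groups, with 3025 ± 841 TPM in OVX saline and 4273 ± 550 TPM in sham saline. The 2 rRNAs lay below most mRNAs, mt-Rnr1 at 6576 ± 1589 TPM in OVX saline and 8082 ± 1291 TPM in sham saline. How well the library kit captured rRNAs, tRNAs and mRNAs without a poly(A) tail was not measured. These TPM and the shares above therefore do not rank the classes in the tissue. The order of the tRNAs differed between groups. mt-Te, the tRNA for glutamate, led them in sham saline with 8268 ± 2325 TPM but had 1535 ± 423 TPM in OVX saline, where mt-Tn, the tRNA for asparagine, led with 1887 ± 464 TPM. The tRNA genes are only 59 to 75 bases long. Reads of mature tRNAs and of uncut precursors cannot be told apart in these counts, here or in the comparisons below.

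Ovariectomy alone was addressed by setting OVX saline against sham saline. Of the 36 members with enough counts to test, 22 fell and none rose at an edgeR adjusted p under 0.05, against 6.24% of all 19969 genes tested that passed in either direction and 2.59% that passed as lower. By class, 10 of 13 protein genes, 0 of 2 rRNAs and 12 of 21 tRNAs fell. All 36 fitted changes were negative, with a median log2 fold change of −1.42 against 0.01 over all genes, and in 28 of 36 the groups did not overlap, against 24.5% of all genes. Scaled by library totals alone, which moved the median of all genes by 0.33, mt-Tw and mt-Ta changed sign. By the means of the deposited TPM, which are not TMM scaled, 29 of the 36 were lower and 7 higher in OVX saline, namely mt-Co3, mt-Ta, mt-Tc, mt-Th, mt-Tn, mt-Tw and mt-Ty, none of which had passed.

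Complex I, which feeds electrons from NADH into the respiratory chain, held the protein genes with the largest changes, and 6 of its 7 mitochondrial subunits fell. mt-Nd6 (MT:13552-14070, minus strand) had 2699, 2059, 1810 and 1298 CPM in OVX saline 1 to 4, against 5550, 16581 and 9458 CPM in sham saline 1 to 3. Every sham saline library lay above the OVX saline libraries, and the range within sham saline was wider than the gap between the groups. The level fell 5.35-fold (log2 fold change −2.42, SE 0.42; edgeR adjusted p = 0.0132). mt-Nd4l (MT:9877-10173) had 1703, 1364, 1330 and 1102 CPM in OVX saline against 3040, 9021 and 5144 CPM in sham saline and fell by 2.06 on the log2 scale (SE 0.36; edgeR adjusted p = 0.0132). mt-Nd1 (MT:2751-3707) had 14107, 11275, 10884 and 8587 CPM in OVX saline against 21321, 60091 and 34732 CPM in sham saline, without overlap. mt-Nd1 fell by 1.79 (SE 0.31), mt-Nd4 by 1.59, mt-Nd2 by 1.55 and mt-Nd5 by 1.42, with edgeR adjusted p between 0.0132 and 0.0165. mt-Nd3 did not pass (log2 fold change −1.10, SE 0.33; edgeR adjusted p = 0.0604), although its OVX saline libraries, at 554 ± 195 CPM, did not overlap with sham saline at 1186 ± 198 CPM.

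In complex III, mt-Cytb (MT:14145-15288) had 24431, 21083, 19619 and 17836 CPM in OVX saline against 26731, 64646 and 39820 CPM in sham saline, and fell by 1.08 (SE 0.22; edgeR adjusted p = 0.0172). Complex IV, which passes the electrons to oxygen, held the protein genes with the smallest changes, mt-Co3 and mt-Co1. mt-Co2 fell by 1.13 (SE 0.23; edgeR adjusted p = 0.0177) and mt-Co1 by 0.70 (SE 0.17; edgeR adjusted p = 0.0307). The mt-Co1 call held in 16 of the 23 alternatives described below. Its deposited TPM, which are not TMM scaled, were close, at 49213 ± 1355 in OVX saline and 50941 ± 2064 in sham saline. mt-Co3 (MT:8607-9390) had 9608, 8382, 7706 and 7409 CPM in OVX saline against 8372, 15044 and 10847 CPM in sham saline. The mt-Co3 groups overlapped, since OVX saline 1 lay above sham saline 1, and it did not pass (log2 fold change −0.46, SE 0.16; edgeR adjusted p = 0.0947). Among the ATP synthase subunits, mt-Atp8 (MT:7766-7969) had 3861, 3092, 2849 and 2263 CPM in OVX saline against 5558, 16743 and 10259 CPM in sham saline and fell by 1.85 (SE 0.32; edgeR adjusted p = 0.0130). mt-Atp6 did not pass (log2 fold change −1.47, SE 0.53; edgeR adjusted p = 0.101), and its counts are taken up below with those of its nuclear copy.

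**Figure D2:**
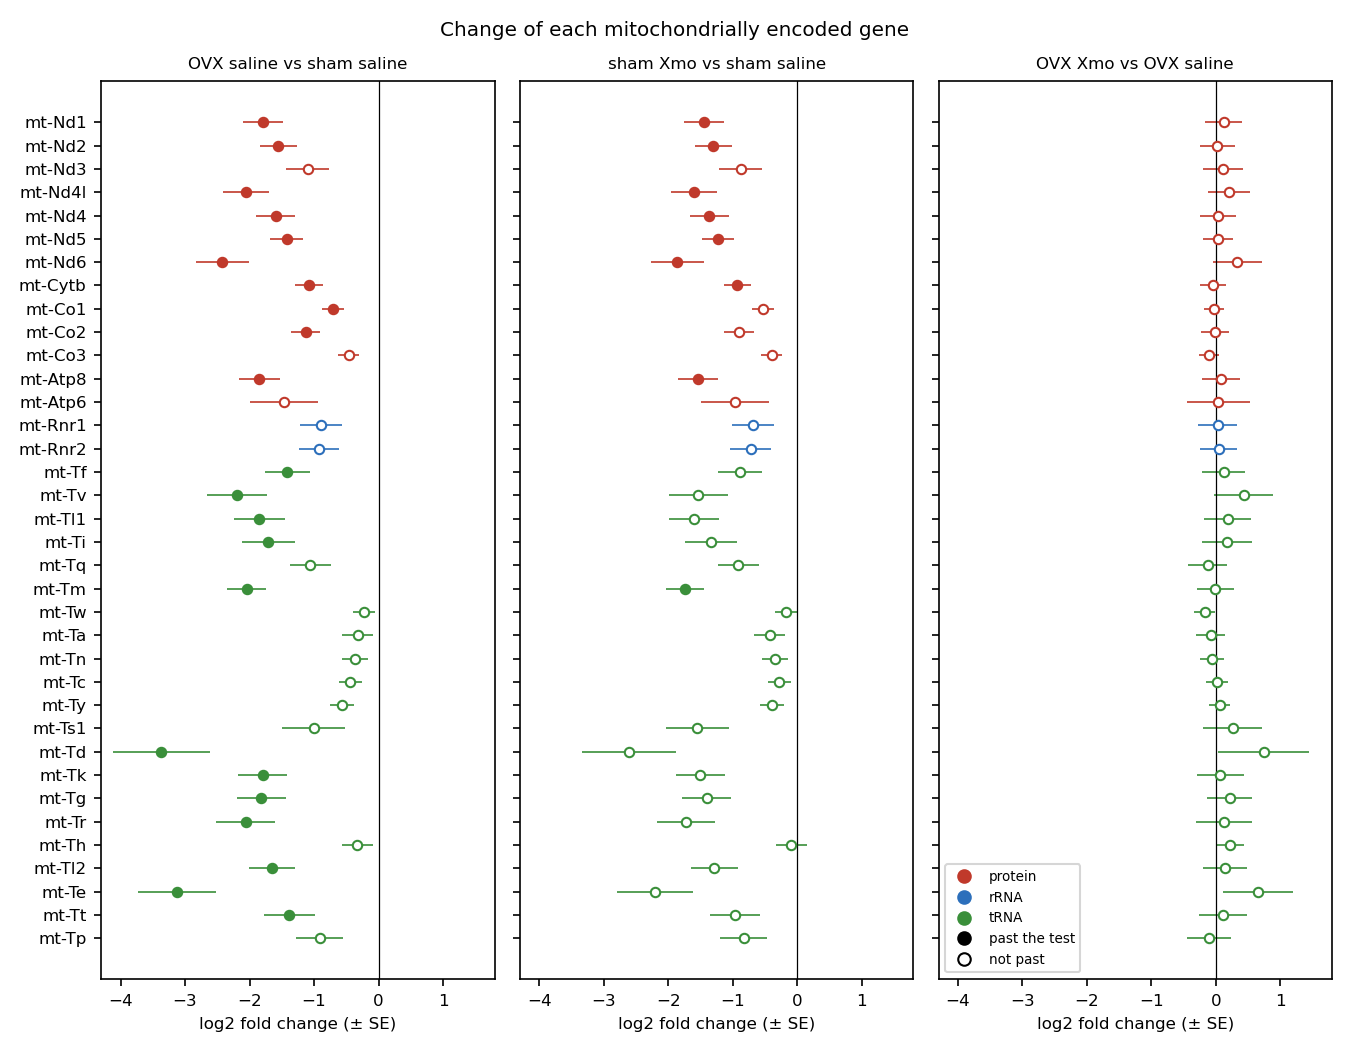
Log2 fold change ± SE (horizontal axis) of the 36 tested members, ordered by complex and class, in OVX saline against sham saline, sham Xmo against sham saline and OVX Xmo against OVX saline; filled points passed at an edgeR adjusted p under 0.05. In the left panel mt-Td (−3.37) and mt-Te (−3.13) lie farthest from 0 and mt-Tw (−0.22) nearest, and in the right panel all points lie between −0.17 and 0.74.

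The 2 rRNAs of the mitochondrial ribosome did not pass. mt-Rnr2, the large-subunit rRNA (MT:1094-2675), had 5701, 4817, 3604 and 2812 CPM in OVX saline against 6421, 9630 and 7962 CPM in sham saline (log2 fold change −0.92, SE 0.31; edgeR adjusted p = 0.0874). mt-Rnr1, the small-subunit rRNA, had a change of −0.89 (SE 0.33; edgeR adjusted p = 0.108). In both, the groups were apart, though by little. The ratio of mt-Rnr1 to mt-Rnr2 counts was 76.5% ± 4.43 in OVX Xmo, 77.8% ± 2.51 in OVX saline, 77.5% ± 1.72 in sham Xmo and 77.3% ± 6.97 in sham saline.

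The tRNAs were uneven. Of 13 tested tRNAs annotated on the plus strand 11 fell, with a median log2 fold change of −1.799 over all 13, and of 8 on the minus strand only mt-Te fell, with a median of −0.74 over all 8. mt-Te (MT:14071-14139), which directly adjoins mt-Nd6 on the same strand, had 79.8, 56.7, 50.7 and 33.2 CPM in OVX saline against 260, 777 and 411 CPM in sham saline. It fell 8.75-fold (log2 fold change −3.13, SE 0.60; edgeR adjusted p = 0.0165), and no OVX saline library came within 3-fold of the lowest sham saline library. mt-Td, the tRNA for aspartate, had 2.53, 1.63, 1.04 and 1.10 CPM in OVX saline against 8.38, 25.2 and 16.2 CPM in sham saline and fell by 3.37 (SE 0.75; edgeR adjusted p = 0.0235). mt-Tm, the tRNA for methionine (MT:3845-3913), had the smallest p of the members, with 50.7, 45.3, 40.6 and 41.2 CPM in OVX saline against 81.0, 315 and 153 CPM in sham saline (log2 fold change −2.04, SE 0.30; edgeR adjusted p = 0.00876).

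mt-Tv (valine) fell by 2.19, mt-Tr (arginine) by 2.06, mt-Tl1 (leucine) by 1.85, mt-Tg (glycine) by 1.82 and mt-Tk (lysine) by 1.799, with edgeR adjusted p between 0.0191 and 0.0230. mt-Ti (isoleucine), mt-Tl2 (leucine), mt-Tf (phenylalanine) and mt-Tt (threonine) fell, with log2 fold changes of −1.71, −1.65, −1.42 and −1.38 and edgeR adjusted p of 0.0293, 0.0228, 0.0317 and 0.0496. The tRNAs mt-Ta, mt-Tn, mt-Tc and mt-Ty (alanine, asparagine, cysteine and tyrosine), which lie side by side on the minus strand at MT:5018-5326, had changes of −0.32, −0.37, −0.44 and −0.56 and did not pass. Their plus-strand neighbour mt-Tw (tryptophan) had a change of −0.22 and mt-Th (histidine) one of −0.33, and neither passed, nor did mt-Tq, mt-Ts1 and mt-Tp (glutamine, serine and proline). mt-Ts2, the other serine tRNA, was too low to test, listed at 1 count in each of 13 libraries, 68 counts in OVX saline 4 and 138 counts in OVX Xmo 4.

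The call count of the members depended on single libraries, as did the calls over all genes, which were 1246 with every library. Without sham saline 2 the member count was 6 and without sham saline 3 it was 8, with 186 and 80 calls over all genes. The member count was 12, 11 and 9 without OVX saline 2, 3 and 4, with 258, 433 and 269 calls over all genes.

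**Figure D3:**
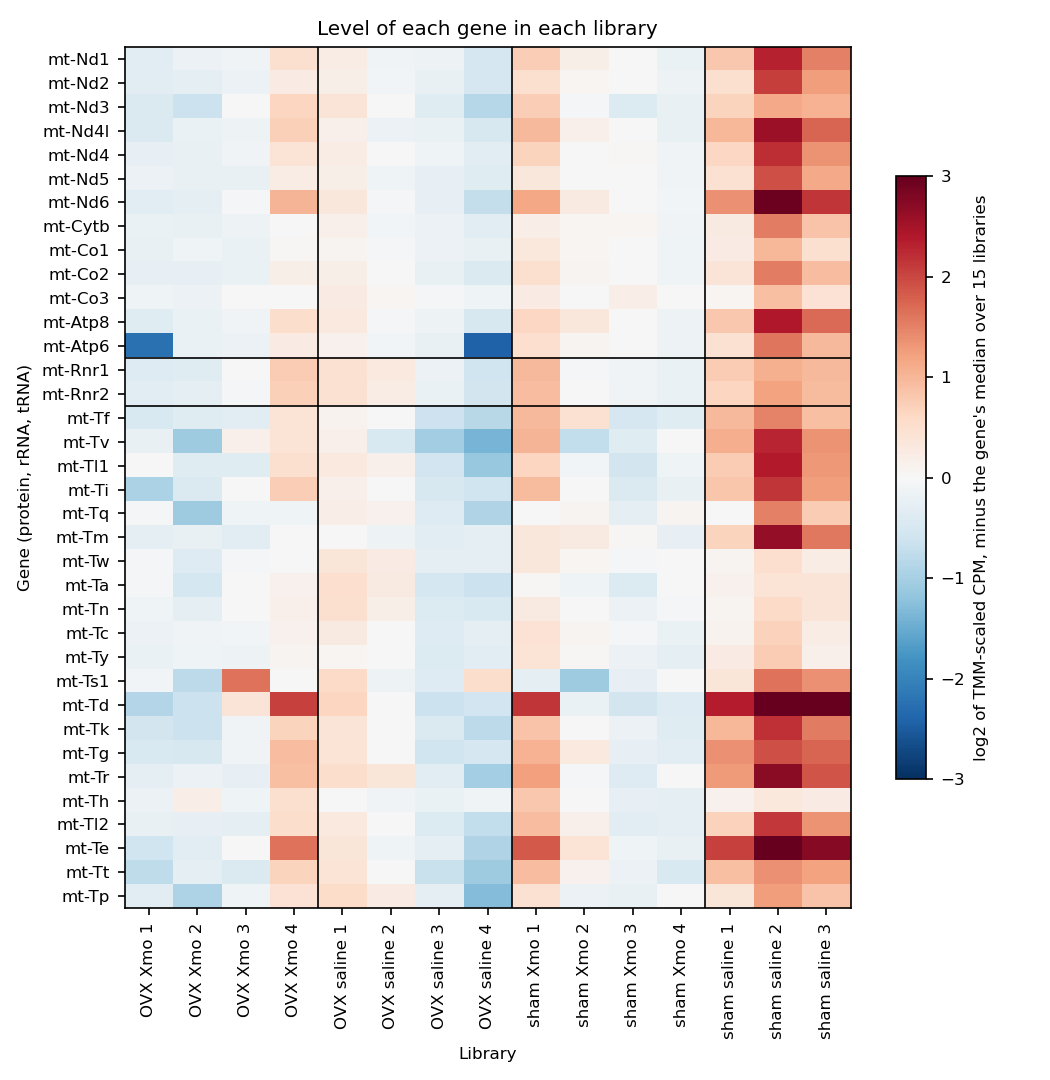
Log2 CPM of the 36 tested members (rows: protein, rRNA and tRNA genes) in the 15 libraries (columns, by group), each minus the gene's median over the libraries; red is higher and blue lower, and values beyond 3 have the end colour. Sham saline 2 is the reddest column, sham Xmo 1 and OVX Xmo 4 are redder than the rest of their groups, and mt-Atp6 is blue in OVX Xmo 1 and OVX saline 4.

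In TMM-scaled CPM, the members moved together within groups as well as between them. Sham saline 2 was the highest of all 15 libraries for 34 of 37 members, sham Xmo 1 was the highest of the 4 sham Xmo libraries for 34, and OVX Xmo 4 was the highest of the 4 OVX Xmo libraries for 34. Sham saline 2 also had the lowest TMM factor of the 15, 0.7261, which raises the CPM of all its genes relative to unscaled counts. By share of unscaled counts the rRNAs were highest in sham Xmo 1, at 1.38%, against at most 1.19% in sham saline. For mt-Te, sham Xmo 1 had 225 CPM against 53.7 to 82.7 CPM in the other sham Xmo libraries, and OVX Xmo 4 had 194 CPM against 41.4 to 62.5 CPM in the other OVX Xmo libraries. All 3 sham saline libraries lay above all 12 other libraries for 15 of 37 members, namely 7 protein genes and 8 tRNAs. The shares of all genes for which these orders held were not counted, so the counts cannot be set against them.

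Xanthohumol without ovariectomy was addressed by setting sham Xmo against sham saline, with the same sham saline libraries as above. Of 36 tested members 9 fell and none rose, against 1.51% of all genes that passed and 0.791% that passed as lower. The 9 were the complex I genes mt-Nd1, mt-Nd2, mt-Nd4, mt-Nd4l, mt-Nd5 and mt-Nd6, together with mt-Cytb, mt-Atp8 and mt-Tm. mt-Nd6 had 4824, 2569, 2146 and 2037 CPM in sham Xmo 1 to 4, against 5550, 16581 and 9458 CPM in sham saline, and fell by 1.86 on the log2 scale (SE 0.41; edgeR adjusted p = 0.0388). Sham Xmo 1 came close to sham saline 1, and the groups still did not overlap. mt-Tm had 63.9, 60.8, 52.0 and 42.6 CPM in sham Xmo against 81.0, 315 and 153 CPM in sham saline and fell by 1.74 (SE 0.30; edgeR adjusted p = 0.0188).

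mt-Atp8 fell by 1.54 (SE 0.31; edgeR adjusted p = 0.0293) and mt-Cytb by 0.93 (SE 0.22; edgeR adjusted p = 0.0467). None of the complex IV genes passed: mt-Co2 had a change of −0.90 (edgeR adjusted p = 0.0582), mt-Co1 one of −0.53 and mt-Co3 one of −0.40. The rRNAs mt-Rnr1 and mt-Rnr2 had changes of −0.69 and −0.72 with overlapping groups, and mt-Te one of −2.21 (SE 0.59; edgeR adjusted p = 0.0682). By the means of the deposited TPM, 28 of the 36 were lower and 8 higher in sham Xmo, mt-Co1 among the 8, and none of the 8 had passed. Over the 36 members the median log2 fold change was −1.10, against 0.03 over all genes, and the groups did not overlap for 17 of 36, against 14.2% of all genes. The count was 0 without sham Xmo 3, sham Xmo 4 or sham saline 3, and 1 without sham Xmo 2 or sham saline 2, while it was 19 without sham Xmo 1. Over all genes, 302 passed with every library, and 27, 50, 14, 126, 227 and 673 without these, in the same order. The member count was 14 without sham saline 1, 15 without OVX Xmo 4, and 3 without OVX Xmo 3, OVX saline 2 or OVX saline 3. The OVX libraries belong to neither group compared but share the fit, the scaling and the low-count filter. Without these, in the same order, 375, 497, 172, 171 and 168 passed over all genes.

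Xanthohumol after ovariectomy was addressed by setting OVX Xmo against OVX saline. No member passed with edgeR, none had an unadjusted p under 0.05, and DESeq2 called none either; of all genes, 0% passed with edgeR and 834 had an unadjusted p under 0.05. mt-Nd6 had 1732, 1763, 2092 and 4324 CPM in OVX Xmo 1 to 4, against 2699, 2059, 1810 and 1298 CPM in OVX saline 1 to 4 (log2 fold change 0.33, SE 0.38; edgeR adjusted p = 0.998). The groups overlapped, and OVX Xmo 4 alone lay above every OVX saline library. mt-Te had 41.4, 49.8, 62.5 and 194 CPM in OVX Xmo against 79.8, 56.7, 50.7 and 33.2 CPM in OVX saline (log2 fold change 0.66, SE 0.54). mt-Nd1 had a change of 0.12 (SE 0.29), mt-Cytb one of −0.05 (SE 0.20), mt-Co1 one of −0.03 (SE 0.16) and mt-Rnr2 one of 0.04 (SE 0.29). The largest fitted change was that of mt-Td, at 0.74 (SE 0.71), and the groups overlapped for every tested member, against 3.11% of all genes whose groups did not overlap.

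OVX Xmo against sham saline gave 11 lower members and none higher, again with the same sham saline libraries, against 1.19% of all genes that passed and 0.441% that passed as lower. These were mt-Nd1, mt-Nd2, mt-Nd4, mt-Nd4l, mt-Nd5, mt-Nd6, mt-Cytb, mt-Co2, mt-Atp8, mt-Tm and mt-Tk. mt-Nd6 fell by 2.09 (SE 0.41; edgeR adjusted p = 0.0335), mt-Tm by 2.05 (SE 0.30; edgeR adjusted p = 0.0269), mt-Atp8 fell by 1.77 (SE 0.31; edgeR adjusted p = 0.0316) and mt-Co2 by 1.14 (SE 0.23; edgeR adjusted p = 0.0335). By the means of the deposited TPM, 29 of the 36 tested members were lower and 7 higher in OVX Xmo, and none of the 7 had passed. The groups did not overlap for 28 of 36 members, against 14.9% of all genes. The count was 0 without OVX Xmo 1, 2 or 3 or sham saline 3, and 1 without sham saline 2, sham Xmo 2 or OVX saline 1, 2 or 3. Over all genes, 237 passed with every library, and 2, 2, 3, 3, 16, 6, 16, 6 and 5 without these, in the same order. The member count was 25 without OVX Xmo 4, 21 without sham Xmo 1 and 20 without sham saline 1, with 983, 505 and 440 calls over all genes.

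OVX Xmo against sham Xmo gave no member past the test and none with an unadjusted p under 0.05, DESeq2 called none, and 0.0100% of all genes passed. The 36 fitted changes ran from −0.47 to 0.81, and the groups overlapped for every tested member, against 5.88% of all genes whose groups did not overlap. The interaction, which is the xanthohumol effect in ovariectomised mice minus that in sham-operated mice, was positive for all 36 members with a median of 1.17, but none passed, against 0.416% of all genes. It was 0.0005 for mt-Tw, which was negative in 10 of 22 alternatives, and mt-Tw, mt-Tc, mt-Tn and mt-Co3 were negative when scaled by library totals alone. Its smallest edgeR adjusted p was 0.0679, for mt-Tm (1.73, SE 0.41), and 22 members had an unadjusted p under 0.05. mt-Nd6 had an interaction of 2.20 (SE 0.56; edgeR adjusted p = 0.0820) and mt-Co3 one of 0.28 (SE 0.22; edgeR adjusted p = 0.550). DESeq2 called 14 members in the interaction, and the edgeR count was 5 without sham Xmo 1 and 4 without sham saline 1. Over all genes these gave 852, 302 and 77 calls, in the same order. The interaction contains the sham saline libraries and so cannot be read apart from their high values.

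Ratios between the strands, classes and complexes were compared within libraries, and none of the 24 tests passed after adjustment. mt-Nd6 amounted to 1.51%, 1.41%, 1.63% and 2.66% of the counts of the 12 plus-strand protein genes in OVX Xmo 1 to 4 and to 1.70%, 1.496%, 1.44% and 1.20% in OVX saline 1 to 4. It amounted to 2.52%, 1.72%, 1.48% and 1.55% in sham Xmo 1 to 4 and to 2.92%, 3.66% and 3.39% in sham saline 1 to 3. All 3 sham saline libraries lay above the 12 others, with OVX Xmo 4 and sham Xmo 1 next. On the log2 scale this ratio differed by −1.19 between OVX saline and sham saline and by −0.90 between sham Xmo and sham saline. Each had an exact two-sided permutation p of 0.0571, the smallest that 4 against 3 libraries allow, and 0.137 after Benjamini-Hochberg adjustment over the 24 ratio tests.

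Complex I genes held 86.9%, 85.4%, 91.9% and 115% as many counts as complex IV genes in OVX Xmo and 96.5%, 86.9%, 89.0% and 78.9% in OVX saline. They held 110%, 91.0%, 89.2% and 88.5% as many in sham Xmo and 121%, 197% and 161% in sham saline. The complex I to complex IV ratio differed by −0.84 (log2) in OVX saline and by −0.73 in sham Xmo from sham saline, the complex III to complex IV ratio by −0.30 in each, and the complex V to complex IV ratio by −0.95 and −0.53. Without OVX saline 4, in which mt-Atp6 was low, the complex V difference in OVX saline was −0.59, and without sham saline 2 the complex III differences were −0.195 and −0.199. The tRNA to protein ratio differed by −0.40 in OVX saline and by −0.35 in sham Xmo. None of these groups overlapped, and each had the same exact permutation p of 0.0571. The rRNA to protein ratio overlapped in both, with differences of 0.22 (exact permutation p = 0.400) and 0.16 (exact permutation p = 0.571). Those differences were 0.00317 and −0.0534 without sham saline 2, 0.399 and 0.343 without sham saline 1, and in sham Xmo 0.0104 without sham Xmo 1. Between OVX Xmo and OVX saline, and between OVX Xmo and sham Xmo, the groups overlapped for all 6 ratios, with exact permutation p between 0.371 and 0.943.

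Genes that share an mRNA also did not keep a constant ratio. mt-Nd4l, the upstream partner, had 12.1%, 13.9%, 13.4% and 17.0% as many counts as mt-Nd4 in OVX Xmo and 13.2%, 12.3%, 13.2% and 12.4% in OVX saline. It had 16.9%, 15.4%, 13.5% and 12.9% in sham Xmo and 17.9%, 17.4% and 18.2% in sham saline. These ratios were looked at after the values of the genes had been seen and were not tested, and again sham saline was above all others, with OVX Xmo 4 and sham Xmo 1 next. Without strand in the counts, reads of a gene and of transcripts from the opposite strand cannot be told apart, which bears on mt-Nd6, mt-Te and the other minus-strand genes, and the sources used here do not say if strand was used.

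**Figure D4:**
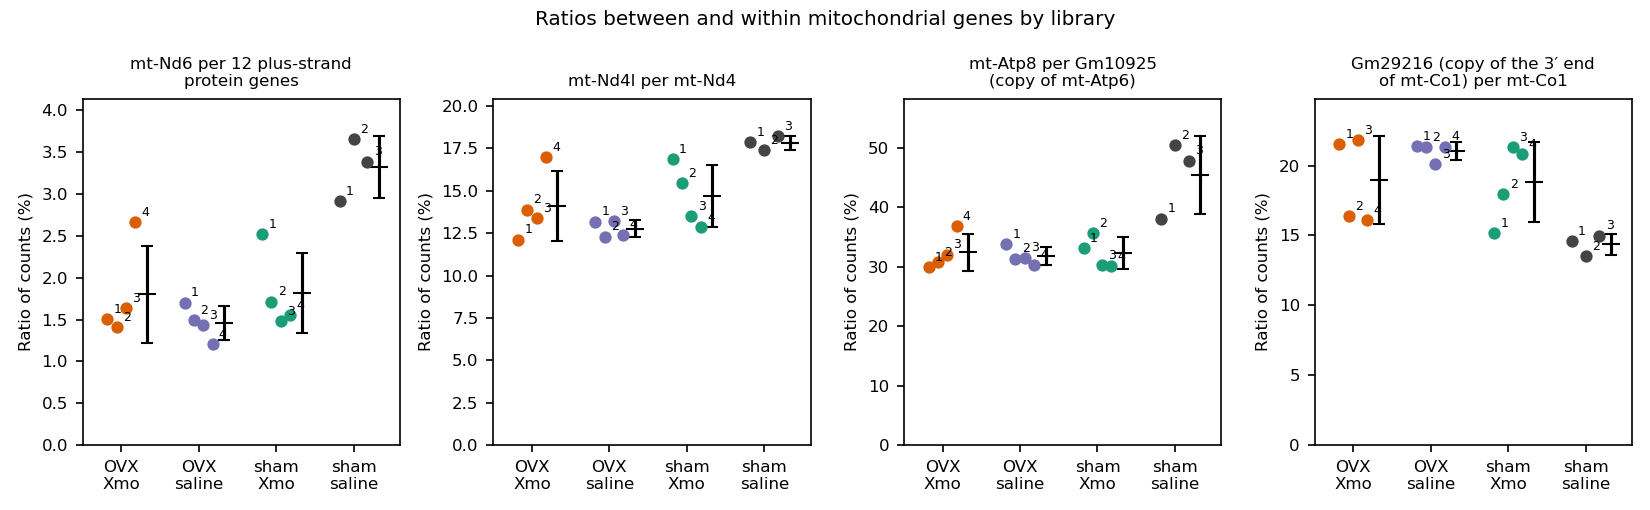
Ratios of counts (%, vertical axes from 0) by library and group; points are libraries with their replicate number, and the bar beside them is the mean ± SD. In the sham saline libraries the first 3 ratios are the highest of the 15, and the last, at 13.5% to 14.98%, is the lowest.

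A stretch of the mitochondrial genome from MT:6381 to MT:11043 has a collinear copy on the minus strand of nuclear chromosome 1, annotated as 7 genes, and 11 members lie wholly and 2 partly within it. The copies and members had nearly the same counts where they match in length: Gm28437 had 0.980 to 1.01 counts per count of mt-Co3, Gm28661 0.986 to 0.997 per mt-Co2, and Gm10222 0.924 to 0.997 per mt-Nd4l. Together the 7 copies took 3.94% ± 0.440 of counts in OVX Xmo, 4.08% ± 0.535 in OVX saline, 4.54% ± 0.524 in sham Xmo and 6.70% ± 1.81 in sham saline. Whether reads were split between copy and member or counted at both was not determined, so the levels of the members within the stretch are uncertain. Of the 5 protein genes outside it, mt-Nd1, mt-Nd2, mt-Nd5, mt-Nd6 and mt-Cytb, all 5 fell in OVX saline, in sham Xmo and in OVX Xmo, each against sham saline. Of the 8 protein genes inside it, 5, 3 and 4 fell in these comparisons.

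mt-Atp6 (MT:7927-8607) differed from its copy in a pair of libraries. It had 2088, 8602, 8752 and 11795 CPM in OVX Xmo 1 to 4, 10798, 9299, 8547 and 1840 CPM in OVX saline 1 to 4, 13993, 10529, 9906 and 8886 CPM in sham Xmo 1 to 4, and 13665, 30141 and 19480 CPM in sham saline 1 to 3. Its copy Gm10925 had 3.92 counts per count of mt-Atp6 in OVX Xmo 1 and 4.05 in OVX saline 4, against 1.04 to 1.10 in the other 13 libraries. Gm10925 fell in OVX saline against sham saline by 1.29 on the log2 scale (SE 0.24; edgeR adjusted p = 0.0160), and when each member was summed with its copy, mt-Atp6 fell by 1.39 (SE 0.32; edgeR adjusted p = 0.0277). mt-Atp8 had 32.4% ± 3.09 as many counts as Gm10925 in OVX Xmo, 31.8% ± 1.48 in OVX saline, 32.3% ± 2.66 in sham Xmo and 45.5% ± 6.52 in sham saline.

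**Figure D5:**
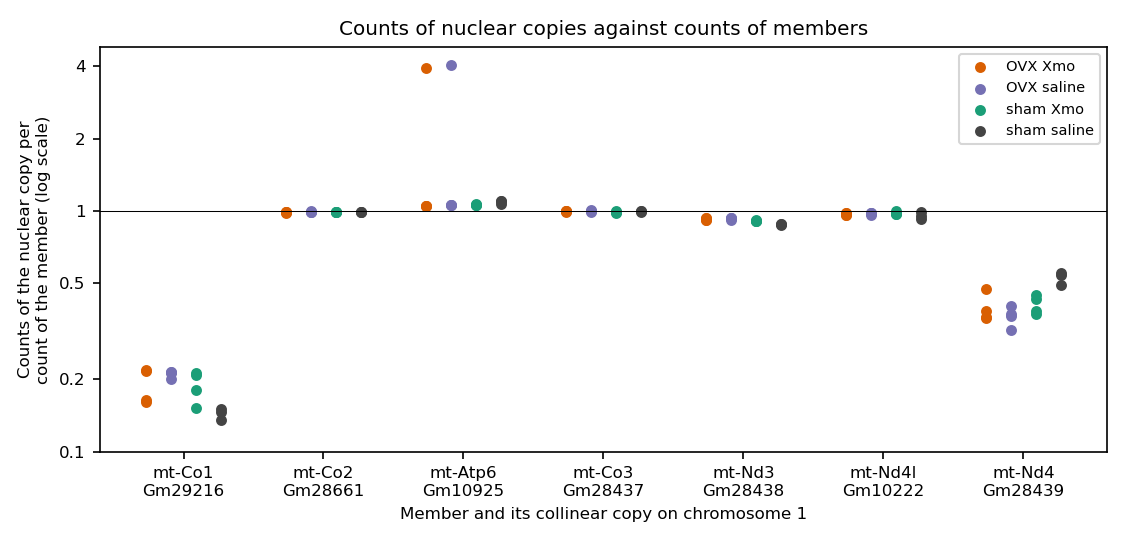
Counts of each nuclear copy per count of the member it matches (log axis), for the 7 pairs; points are libraries, coloured by group. Most pairs lie near 1, mt-Atp6 has 2 libraries near 4, and for mt-Co1 and mt-Nd4, of which the copies cover only a part, the ratio differs between groups.

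The partial copies divide a pair of genes. Gm29216 matches the last 31.8% of mt-Co1 and Gm28439 the first 63.6% of mt-Nd4. Gm29216 had 19.0% ± 3.16 of the counts of mt-Co1 in OVX Xmo, 21.03% ± 0.624 in OVX saline, 18.8% ± 2.84 in sham Xmo and 14.3% ± 0.763 in sham saline. Gm28439 had 39.4% ± 5.37 of the counts of mt-Nd4 in OVX Xmo, 36.6% ± 3.46 in OVX saline, 40.9% ± 3.64 in sham Xmo and 52.8% ± 3.06 in sham saline. Relative to the member it matches, the first copy was thus lower and the second higher on average in sham saline than in the other groups. Gm28439 fell in OVX saline against sham saline by 2.13 on the log2 scale (SE 0.37; edgeR adjusted p = 0.0132), while Gm29216 had a change of −0.13 (SE 0.15; edgeR adjusted p = 0.613). How these counts divide between copy and member is not known.

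Libraries were made with the Illumina TruSeq RNA Sample Prep Kit, per the labels' protocols. A list of nuclear RNAs classed as lacking a poly(A) tail was read beside the members. Of 12 RNAs of this list that were tested, 2 fell and 1 rose in OVX saline against sham saline, against 2.59% and 3.65% of all genes. Rn7s1, an RNA of the signal recognition particle, had 4.68 ± 2.08 CPM in OVX saline and 15.7 ± 8.99 CPM in sham saline (log2 fold change −1.73, SE 0.36; edgeR adjusted p = 0.0183), and its near-identical copy Rn7s2 fell by 1.76. The histone mRNA Hist1h2bc rose by 0.36, with 47.7 ± 0.942 CPM in OVX saline and 37.3 ± 2.73 CPM in sham saline. Whether its mRNA lacks a tail in this tissue was not tested. Rn7s1 also fell in sham Xmo, by 1.51, and Rn7s1, Rn7s2 and Rn7sk, an RNA that regulates transcription elongation, fell in OVX Xmo, by 2.06, 2.07 and 1.36, each against sham saline. Most of the list did not fall. Against sham saline, 8 of the 12 had positive fitted changes in OVX saline (median 0.14), 8 in sham Xmo (median 0.14) and 7 in OVX Xmo (median 0.05). The summed level of the list was 73.2 to 96.1 CPM in OVX saline and 79.4 to 116 CPM in sham saline, and no RNA on it was at 0 in either group. Hist1h2bc was a large part of this sum, which therefore says little about Rn7s1 and Rn7s2. Of 8 endothelial markers 2 fell in OVX saline against sham saline, Flt1 and Ly6c1, by 0.54 and 1.44, and the 8 endothelial markers summed to 153 to 177 CPM in OVX saline and 203 to 297 CPM in sham saline, with sham saline 2 highest. The blood cell genes S100a9 and Ngp, expressed in neutrophils, had 0.0501 ± 0.10 and 0.138 ± 0.111 CPM in OVX saline and 5.64 ± 5.61 and 5.42 ± 6.83 CPM in sham saline, and the 8 blood markers summed to 813 to 1258 CPM in OVX saline and 434 to 2460 CPM in sham saline. Of 8 microglial markers 2 rose in OVX saline, Tmem119 by 0.64 and Csf1r by 0.33, and of 8 astrocyte markers Mlc1 rose by 0.49, while no neuron or oligodendrocyte marker passed. In sham Xmo against sham saline the endothelial Flt1 fell by 0.55, the neutrophil gene S100a9 by 3.44, and the oligodendrocyte gene Mog rose by 0.70. S100a9 was low in sham Xmo, at 0.502 ± 0.491 CPM, and the blood markers as a list did not fall there. Of the 8, 4 had positive fitted changes (median 0.04), and they summed to 504 to 4926 CPM in sham Xmo. The part of each of these in the changes of the members was not tested.

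Of the nuclear genes of the same complexes, most that passed the test were higher. In OVX saline against sham saline, 10 of 36 nuclear complex I genes rose and none fell, 3 of 9 in complex III rose and 1 fell, 7 of 11 in complex IV rose and none fell, and 3 of 16 in ATP synthase rose and 1 fell, against 3.65% of all genes that passed as higher. Cox5a, a complex IV subunit, had 59.0 ± 3.18 CPM in OVX saline and 33.2 ± 3.4 CPM in sham saline and rose by 0.83 (SE 0.13; edgeR adjusted p = 0.00945). Ndufb6 of complex I rose by 0.61 (SE 0.10; edgeR adjusted p = 0.0130), Atp5e of ATP synthase by 0.85 (SE 0.14; edgeR adjusted p = 0.0120) and Uqcrq of complex III by 0.56 (SE 0.11; edgeR adjusted p = 0.0177). Uqcrb of complex III fell by 0.59 and Atpif1, an inhibitor of ATP synthase, by 0.40. The list medians were 0.27, 0.31, 0.42 and 0.29 for complexes I, III, IV and ATP synthase, against 0.01 over all genes.

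Nuclear genes that maintain and express the mitochondrial genome were read against the 6.24% of all genes that passed in OVX saline against sham saline. Of 26 genes of its DNA upkeep and transcription 1 rose and none fell in OVX saline against sham saline, and that was Slc25a33, a pyrimidine nucleotide carrier, with 22.3 ± 0.901 CPM in OVX saline and 14.2 ± 1.55 CPM in sham saline (log2 fold change 0.64, SE 0.12; edgeR adjusted p = 0.0138). Of 34 genes of mitochondrial RNA processing and decay, the RNA methyltransferase Nsun2 rose by 0.30. Of 22 mitochondrial tRNA synthetases, Fars2 and Cars2 (for phenylalanine and cysteine) rose by 0.62 and 0.60, and of 14 translation factors none passed. Among 19 regulators of mitochondrial biogenesis 2 fell and 1 rose. Ppargc1a, the transcriptional coactivator PGC-1α, had 48.2 ± 2.71 CPM in OVX saline and 73.9 ± 9.66 CPM in sham saline (log2 fold change −0.62, SE 0.12; edgeR adjusted p = 0.0165). Prkaa2, a catalytic subunit of the energy sensor AMPK, fell by 0.55, and Sirt3, a mitochondrial deacetylase, rose by 0.47.

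In sham Xmo against sham saline, 2 of 36, 1 of 9, 1 of 11 and 1 of 16 nuclear genes of complexes I, III, IV and ATP synthase rose, against 0.721% of all genes that passed as higher, and Slc25a33 and Fars2 were the genes past the test on the upkeep and synthetase lists, at 0.60 and 0.61. Cox5a had 52.9 ± 2.05 CPM in sham Xmo and rose by 0.67 (SE 0.13; edgeR adjusted p = 0.0256). In OVX Xmo against sham saline, 3 of 36, 2 of 9, 2 of 11 and 1 of 16 rose, against 0.746% of all genes, and Slc25a33 and Sirt3 rose by 0.61 and 0.48.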

How the data were processed

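Gene counts were deposited by the authors as whole numbers for 51826 genes, and TPM values were deposited by the authors for the same libraries, per the file headers. The submitters' processing notes name FastQC 0.11.2, Trimmomatic 0.36, Bowtie2 2.3.2, StringTie 1.3.3b and GRCm38.p6; they do not say which tool made which column. A further 12 columns matched no sample and were not used. Genes passing edgeR's filterByExpr (19969) were scaled by TMM and fitted with edgeR's quasi-likelihood test over 4 groups and 15 libraries (11 residual degrees of freedom), with Benjamini-Hochberg adjustment over all of them and a threshold of 0.05. Ratios of class counts were compared by exact permutation tests. Depth (20.8 to 39.1 × 1e+06 counts) leaves counting error small for the mRNAs and limits the low tRNAs, among them mt-Ts2, mt-Ts1, mt-Tv, mt-Td, mt-Tf and mt-Tt. mt-Td, with the largest fitted change, had 101, 48, 32 and 27 counts in OVX saline 1 to 4. The scripts were tested on simulated data. Software was R 4.3.3, edgeR 4.0.16, DESeq2 1.42.0 and scipy 1.17.1. The members, lists and rules were chosen with earlier results of these data known, and all 37 members were accounted for. Values by library were given as needed, for some of the protein genes and for mt-Rnr2, with fold changes for the rest of these 2 classes. The rule allowed values by library for at most 6 tRNAs, by smallest p in OVX saline against sham saline. Under it mt-Tm and mt-Te are given, and mt-Td was added for the size of its change. Fold changes were given for most other tRNAs, and at most 4 genes past the test were named per list. No mitochondrial sequence was used here.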

Additional observations from a re-analysis of the deposited data

Results flagged for a closer look

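Each group of 4 libraries was searched for a library far from the other 3 (a gap to the nearest, as a share of the group's range, above Dixon's 95% critical value), over the 37 members' CPM, 3 class shares and 6 ratios. This gave 22 hits in 138 searches; chance gives about 1 in 20, and the searches are not independent because the members moved together within a library.

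OVX Xmo 4 was far above the rest of its group for 9 members. Its CPM were 4324 for mt-Nd6, 14613 for mt-Nd5, 8450 for mt-Co2, 194 for mt-Te, 21.9 for mt-Tg, 8.54 for mt-Tr, 8.35 for mt-Tl2, 3.06 for mt-Tf and 5.15 for mt-Ts2. For mt-Nd6 the other 3 libraries had 1732 to 2092 CPM and for mt-Te they had 41.4 to 62.5 CPM.

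Sham Xmo 1 was far above the rest of its group for 6 members, with 6262 CPM for mt-Rnr1, 7848 for mt-Rnr2, 17726 for mt-Nd4, 225 for mt-Te, 10.8 for mt-Tr and 7.21 for mt-Td. It also stood apart in the rRNA share of counts (1.38%), the rRNA to protein ratio (7.18%) and the complex I to complex IV ratio (110%). For mt-Rnr1 the other 3 libraries had 2787 to 3131 CPM and for mt-Td they had 1.11 to 1.41 CPM.

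OVX Xmo 2 was far below the rest of its group for mt-Tq, with 7.95 CPM against 15.2 to 15.9 CPM, and for mt-Tw, with 10.6 CPM against 13.5 to 13.8 CPM. OVX saline 4 was far above its group for mt-Ts2, with 2.76 CPM, and far below it in the complex V to complex IV ratio, with 8.42% against 21.8% to 23.6%, and this is the library in which mt-Atp6 had 1840 CPM.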

How the results depend on the processing

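Under 23 alternatives, no member that passed changed sign, and 6 of the 22 that fell in OVX saline against sham saline passed in every alternative (mt-Nd1, mt-Nd4l, mt-Nd5, mt-Nd6, mt-Atp8 and mt-Tm). None of the 11 or 9 members of the other comparisons with sham saline did. The 22 became 7 with the replicate block and 6 to 25 without each library in turn. Over all genes, the 1246 calls of that comparison became 178 with the block. The 9 of sham Xmo against sham saline became 17 with library totals only, 4 without the filter on low counts, 21 with DESeq2, 0 with only the groups compared, 0 with the replicate block and 0 to 19 without each library. Over all genes, the 302 calls of this comparison became 3559 with library totals only and 108 of 34743 genes without the filter. They became 1110 with DESeq2, 6 with only the groups compared and 37 with the block. The 11 of OVX Xmo against sham saline became 21 with library totals only, 27 with DESeq2, 0 with only the groups compared, 0 with the replicate block and 0 to 25 without each library. Over all genes, the 237 calls of this comparison became 3530 with library totals only, 1118 with DESeq2, 4 with only the groups compared and 2 with the block. The 0 of the interaction became 5 with library totals only, 14 with DESeq2 and 0 to 5 without each library. Over all genes, the 83 calls of the interaction became 1182 with library totals only and 852 with DESeq2. The cause of these differences was not tested. OVX Xmo against OVX saline and against sham Xmo stayed at 0 in every alternative. DESeq2 called 29 in OVX saline against sham saline, and summing members with their copies, an alternative chosen after seeing the data, gave 22, 9, 11 and 0 for these comparisons and the interaction. Over all genes, DESeq2 called 2322 in OVX saline against sham saline.

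Same-numbered libraries' deviations had correlations between −0.215 and 0.186, so the numbers were not taken to pair libraries. The block left 8 residual degrees of freedom, against 11 in the main fit, and why calls were lost under it was not tested.

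Library totals alone moved the median of all genes by 0.33, 0.32 and 0.32 in OVX saline, sham Xmo and OVX Xmo, each against sham saline, and turned the sign of members that did not pass. These were mt-Tw (0.11) and mt-Ta (0.003) in OVX saline, mt-Tw (0.14), mt-Th (0.19) and mt-Tc (0.04) in sham Xmo and mt-Th (0.19) in OVX Xmo. In the interaction they were mt-Tw (−0.325), mt-Tc (−0.037), mt-Tn (−0.039) and mt-Co3 (−0.067).

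Some ratio differences near 0 changed sign without a library; none had passed. The ranges without each library, between OVX Xmo and OVX saline, were −0.125 to 0.0958 (rRNA to protein), −0.0176 to 0.0162 (complex III to IV) and −0.262 to 0.439 (complex V to IV). Between OVX Xmo and sham Xmo they were −0.0682 to 0.218 (rRNA to protein), −0.0238 to 0.160 (tRNA to protein), −0.229 to 0.142 (mt-Nd6), −0.0980 to 0.0700 (complex I to IV), −0.0345 to 0.0204 (complex III to IV) and −0.507 to 0.0198 (complex V to IV). Between sham Xmo and sham saline the rRNA to protein range was −0.0534 to 0.343. With deposited TPM, rRNA to protein was −0.00946 and complex III to IV 0.00139 between OVX Xmo and OVX saline.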
